A study of Mus musculus with 6 samples.

Results

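Oligodendrocyte and myelin genes were followed in mouse visual cortex after the loss of one eye. The 9 genes Mbp, Mog, Mag, Mobp, Cnp, Cldn11, Mal, Sox10 and Olig1 were taken as every probe set that the platform annotation assigns to one of these symbols. This gave 15 of the 12488 probe sets on the array and 8 of the 9 genes, out of 8252 genes named on the array; Olig1 is not analysed here. Adult wild-type mice of the C57Bl6 strain (4 animals) were enucleated on one side at postnatal day 100 and killed 4 days later. The deprived group (3 arrays) was visual cortex contralateral to the removed eye, and the non-deprived group (3 arrays) was visual cortex ipsilateral to it. Every mouse thus had one eye removed, and no cortex of an intact mouse was compared. The series describes its samples as pooled. Both groups came from enucleated mice, as opposite hemispheres, and the labels do not pair their arrays. The sources used here give neither the number of mice in a pool nor whether arrays of a group were separate pools. However, 4 animals would not suffice for 3 separate pools of several mice each. The p-values therefore reflect spread among these arrays alone, and that spread may be technical.

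Oligodendrocytes wrap the axons of the central nervous system in myelin, a stack of compacted membrane that speeds conduction. Transcription factors such as Olig1 and Sox10 act in cells of the oligodendrocyte lineage, and Sox10 activates the myelin genes. The adult brain keeps oligodendrocyte precursors, and myelin in the cortex can be remodelled with neuronal activity. In cortex these genes are densest in the white matter and deep layers, so their signal in a dissected block also depends on how much white matter the block holds. In such bulk tissue, fewer oligodendrocytes and less of a transcript per oligodendrocyte cannot be told apart.

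The DNA around the start of Mobp and Mag is shown because the Sox10 protein is known to act on myelin genes through short sites with the core ACAAAG or ACAATG. Windows of 300 bases (250 before to 50 after a start site, NCBI RefSeq, GRCm38.p6) were found for 6 of the genes, 8 windows in all, and were searched for either core on both strands. Overlapping matches were allowed. A core was present in 4 of the 8 windows, beside 28.6% of all 32851 windows of this length. These 4 belong to 3 of the 6 genes, Mobp, Mag and Cnp. For Mag, the matching windows of 2 nearby start sites overlap and hold the same match, so one of them is shown. The windows of Mobp (chr9:120149492-120149791, plus strand) and of one Mag start (chr7:30914814-30915113, minus strand) read 5′ to 3′ as follows, with the matches in capitals.
Mobp: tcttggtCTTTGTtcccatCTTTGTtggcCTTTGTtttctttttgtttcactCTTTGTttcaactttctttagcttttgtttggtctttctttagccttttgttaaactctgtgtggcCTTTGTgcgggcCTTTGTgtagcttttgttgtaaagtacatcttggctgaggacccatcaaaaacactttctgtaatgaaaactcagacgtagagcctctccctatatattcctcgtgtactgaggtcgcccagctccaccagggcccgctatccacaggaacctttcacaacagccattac
Mag: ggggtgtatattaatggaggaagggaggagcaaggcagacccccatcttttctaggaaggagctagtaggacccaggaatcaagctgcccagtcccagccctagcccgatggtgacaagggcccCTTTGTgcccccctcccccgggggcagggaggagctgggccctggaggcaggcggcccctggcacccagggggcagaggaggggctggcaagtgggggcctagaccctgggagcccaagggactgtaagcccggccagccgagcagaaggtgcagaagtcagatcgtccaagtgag
The Mobp window held 6 matches and the Mag window 1, at 126 bases before the start. A match is a description of the letters and not evidence of binding.

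The comparison asked whether cortex that lost its main eye input differed from cortex that kept it. No oligodendrocyte or myelin gene passed the test. Of the 15 probe sets, 13 (7 genes) were bright enough to be tested, and 0 of these 13 passed at an adjusted p under 0.05 by limma, a linear model fitted to all 7453 tested probe sets on log2(signal + 16), with Benjamini-Hochberg adjustment. The smallest adjusted p among them was 0.949, and 0 of the 13 had an unadjusted p under 0.05, where 5.09% of all tested probe sets did. The lowest unadjusted p by limma was 0.05004, for Sox10, so this count lies at the edge of that threshold. Across all tested probe sets 0.174% passed, 13 in number; 0.0134% passed as higher and 0.161% as lower in deprived cortex. With each gene represented by its brightest probe set, 4 of the 7 had a higher mean and 3 a lower mean in deprived cortex. Their median log2 change, deprived minus non-deprived, was 0.06, beside 0.01 over all 5653 tested genes.

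**Figure D1:**
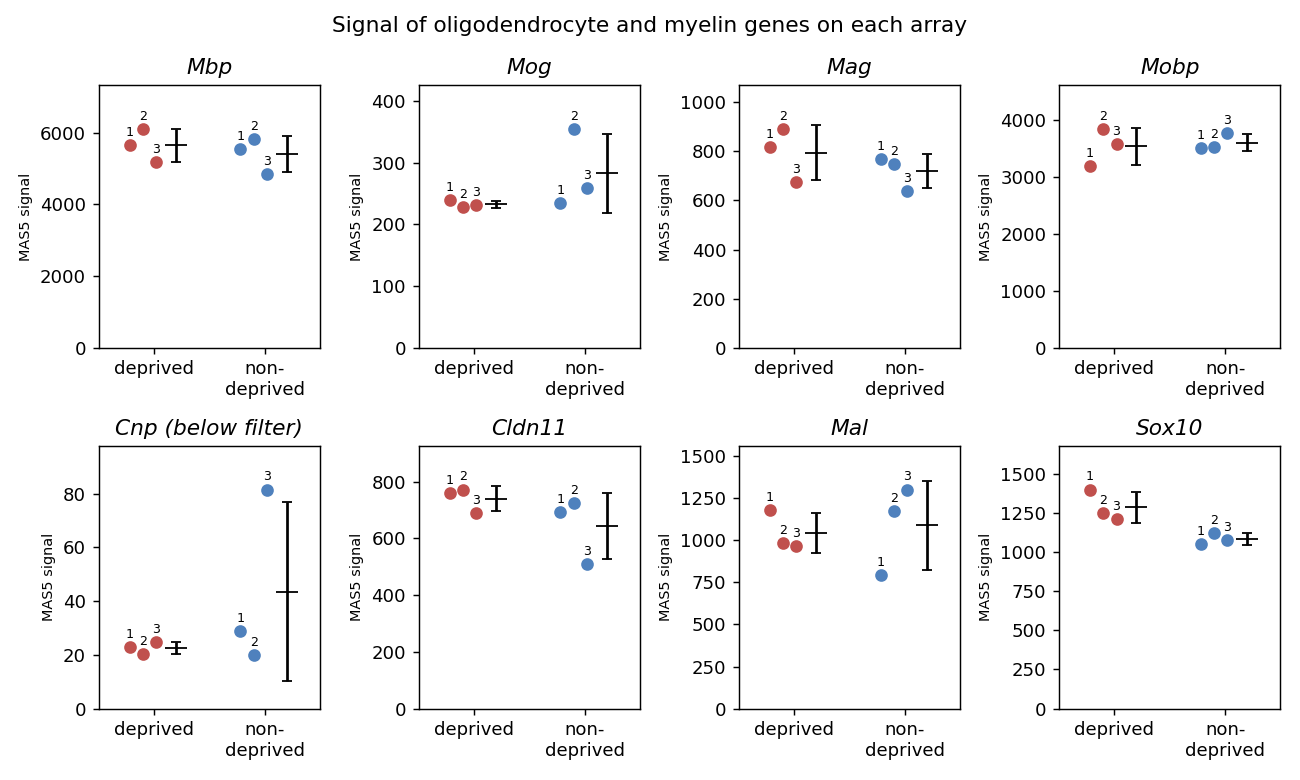
MAS5 signal (linear scale, arbitrary units, axes from 0) of the brightest probe set of each gene. Points are single arrays with their replicate number, deprived on the left and non-deprived on the right, and the black mark and bar beside them are the mean and SD of 3 arrays; the groups overlap for every gene shown except Sox10, and the 6 Cnp values lie between 19.8 and 81.5, under the level that was tested.

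The median signal of an array was 206.4 to 219.7 on deprived and 202.8 to 218.3 on non-deprived arrays. A control for 18S ribosomal RNA, at its 3′ end, set one array apart. It read 661 to 981 on the 3 deprived arrays, and 905 to 2689 on the non-deprived arrays, with the highest value on non-deprived replicate 3. For the oligodendrocyte and myelin genes, log2 changes that moved by over 1.5 times without that array are given both ways. Signals are set side by side only within a probe set, since the brightness of different probe sets does not measure their relative abundance.

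The only transcription factor tested in the set gave the smallest p. Sox10, which drives oligodendrocyte differentiation and myelin gene transcription, read 1400.1, 1247.4 and 1214.4 on deprived arrays 1 to 3, against 1048.8, 1123.3 and 1079.4 on non-deprived arrays 1 to 3. All 3 deprived values lay above all 3 non-deprived values. It averaged 1287 ± 99.1 in deprived and 1084 ± 37.5 in non-deprived cortex (SD, n = 3 each), a ratio of 1.18 with a 95% interval of 1.00 to 1.40 (log2 change 0.24, SE 0.11, limma adjusted p = 0.949). It did not pass. Sox10 was the only one of the 13 tested probe sets whose groups did not overlap, where 10.1% of all tested probe sets did not overlap in one direction or the other and 5.5% with deprived arrays higher.

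A second, dim probe set of Sox10 did not show the same separation. It read 90.1, 344.3 and 90 on deprived arrays and 71.8, 159.2 and 178.8 on non-deprived arrays. Deprived replicate 2 was the highest and the other 2 deprived arrays lay inside the non-deprived range. Its log2 change was 0.15 with an SE of 0.53, so it bounds the change only loosely.

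Among structural proteins of compact myelin, Mbp encodes myelin basic protein, which holds the cytoplasmic faces of the membrane together. Its brightest probe set read 5646.2, 6108.9 and 5178.1 on deprived arrays, against 5549.5, 5817.2 and 4841.3 on non-deprived arrays. The groups overlapped almost completely, and the ratio of 1.05 had a 95% interval of 0.900 to 1.21 (log2 change 0.06, SE 0.10, limma adjusted p = 0.968). Without non-deprived replicate 3 the log2 change was -0.01. A second Mbp probe set, designed from another transcript sequence, read 1028.1, 824.3 and 869.1 on deprived arrays and 879.8, 1124.9 and 1104.5 on non-deprived arrays. Its log2 change had the opposite sign, -0.19 (SE 0.14, limma adjusted p = 0.967). Deprived replicate 2, the highest array on the first probe set, was the lowest on the second.

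Mobp, myelin-associated oligodendrocyte basic protein, is a small basic protein of compact myelin. Its brightest probe set read 3185.3, 3842.9 and 3569.1 on deprived arrays, against 3504.5, 3517 and 3765.3 on non-deprived arrays. The non-deprived values lay within the deprived range, and the ratio of 0.980 had the narrowest interval of the 7 genes, 0.848 to 1.13 (log2 change -0.03, SE 0.09, limma adjusted p = 0.987). It was 0.0046 without non-deprived replicate 3. The 3 other Mobp probe sets varied more. One read 1708.3, 2956.4 and 1687.4 on deprived arrays and 1677.3, 2039 and 2326.6 on non-deprived arrays. Another, designed from the same transcript sequence as that one, read 631, 1129.5 and 587.3 on deprived arrays and 603.1, 724.9 and 782.4 on non-deprived arrays. The dimmest read 497, 670.8 and 385.7 on deprived arrays and 409, 631.5 and 461.3 on non-deprived arrays. Deprived replicate 2 was the highest array on all 4, while the log2 changes of the 3 dimmer ones were 0.03, 0.10 and 0.04 with SE from 0.21 to 0.23.

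Mal is a membrane proteolipid that sorts lipids and proteins to the myelin membrane. It read 1181.2, 983.2 and 965.6 on deprived arrays, against 794.7, 1174.3 and 1301.9 on non-deprived arrays. The deprived values lay inside the non-deprived range, which held both the lowest and the highest array. The log2 change was -0.04 (SE 0.18, limma adjusted p = 0.994), and without non-deprived replicate 3 it was 0.10. Cldn11, also called oligodendrocyte-specific protein, forms the tight junctions between the layers of the sheath. It read 758.7, 772.7 and 689.6 on deprived arrays, against 694, 725.8 and 511.6 on non-deprived arrays. The groups overlapped, and the low non-deprived replicate 3 carried much of the difference in means, since the log2 change was 0.21 (SE 0.16, limma adjusted p = 0.967) with all arrays and 0.06 without that array. A dim _r probe set of Cldn11, under the tested level, read 176.8, 77.1 and 122.7 on deprived arrays and 92.9, 95.5 and 160.3 on non-deprived arrays.

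Mag and Mog encode proteins at the surfaces of the sheath. Mag, myelin-associated glycoprotein, sits on the inner face against the axon and binds axonal receptors. It read 816.6, 891.3 and 672.9 on deprived arrays, against 768.9, 749.3 and 639.4 on non-deprived arrays. Its groups overlapped, with a log2 change of 0.13 (SE 0.15, limma adjusted p = 0.967) that was 0.05 without non-deprived replicate 3 and also 0.05 without deprived replicate 2. On its dimmer _r probe set Mag read 235.7, 317 and 247.7 on deprived arrays and 250.4, 202.9 and 230.5 on non-deprived arrays, for a log2 change of 0.21 (SE 0.21). Probe sets marked _r were designed under relaxed rules and can pick up related transcripts.

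Mog, myelin oligodendrocyte glycoprotein, lies on the outermost surface of the sheath. It read 239.1, 227.7 and 232.1 on deprived arrays, against 234.2, 355.2 and 258.9 on non-deprived arrays. Non-deprived replicate 2 alone was high, and the log2 change of -0.24 (SE 0.22, limma adjusted p = 0.967) was -0.08 without it. Cnp, which encodes the myelin enzyme 2′,3′-cyclic nucleotide 3′-phosphodiesterase, read 23, 20.3 and 24.7 on deprived arrays and 28.9, 19.8 and 81.5 on non-deprived arrays. These values lie far under the lowest mean signal tested, 134.7, and are not shown to be above background. They bear on this probe set and not on the level of the transcript.

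**Figure D2:**
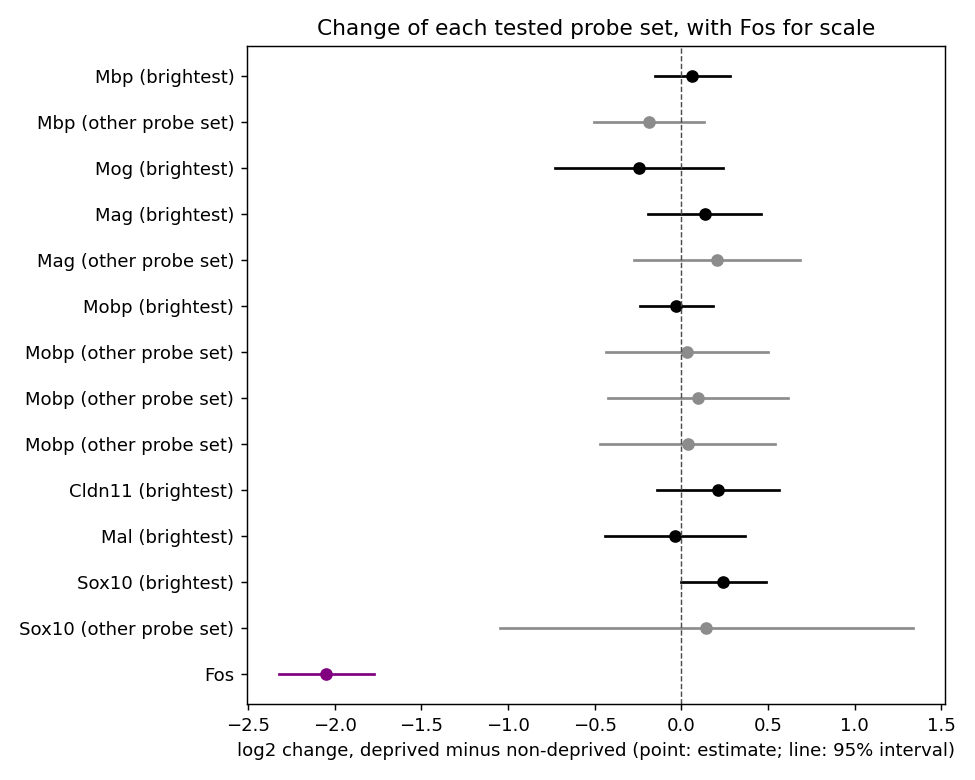
Log2 change (deprived minus non-deprived, log2(signal + 16)) of the 13 tested probe sets, with 95% intervals from limma; black points are the brightest probe set of a gene, grey points its other probe sets and the purple point Fos. All 13 estimates lie between -0.24 and 0.24, while Fos lies at -2.05.

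The intervals bound how large a change these 6 arrays allow. For 6 of the 7 genes (Mbp, Mag, Mobp, Cldn11, Mal and Sox10) the whole 95% interval lay within a 1.5-fold change in either direction. For Mog it reached a fall of 1.65-fold and lay within 2-fold. For Mbp and Mobp it lay within 1.3-fold. These are the intervals of brightest probe sets. On the second Mbp probe set the interval reached a fall of 1.42-fold, and on a dimmer Mobp probe set a rise of 1.53-fold. Over all tested genes, each by its brightest probe set, 56.5% had intervals within 1.5-fold and 23.8% within 1.3-fold. Counted by probe set, the intervals of 9 of the 13 lay within 1.5-fold and 2 of the 13 within 1.3-fold, beside 53.9% and 22.2% of all tested probe sets. Within 2-fold lay 12 of the 13, beside 86% of all tested probe sets. The exception was the second Sox10 probe set, whose interval ran from a 2.07-fold fall to a 2.53-fold rise. Each interval is for that probe set alone and is not adjusted for the number examined. Fos, an immediate-early transcription factor gene that neurons induce with activity, read 758.2, 602.1 and 749.3 on deprived arrays, against 2837.1, 2784.2 and 3217 on non-deprived arrays. In the same fit it fell by 2.05 on the log2 scale (SE 0.12, limma adjusted p = 0.00014).

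The genes did not share a single pattern over the arrays. On their brightest probe sets, Mbp, Mag and Cldn11 were each highest on deprived replicate 2, next to lowest on deprived replicate 3 and lowest on non-deprived replicate 3. Relative to each gene's mean over the 6 arrays, on the log2 scale, these 3 stood at 0.15, 0.24 and 0.17 on deprived replicate 2 and at -0.19, -0.23 and -0.41 on non-deprived replicate 3. Mal ran the other way on non-deprived replicate 3, at 0.30, and was lowest on non-deprived replicate 1, at -0.40. Mog stood at 0.46 on non-deprived replicate 2 and between -0.15 and 0.02 elsewhere. Non-deprived replicate 3 is also the array with the high 18S signal, whose part in these differences was not tested. Of the 7 genes, 4 were highest on deprived replicate 2 and 3 were lowest on non-deprived replicate 3. Other probe sets of Mbp, Mag and Cldn11 did not repeat the order of the brightest ones. The second Mbp probe set and the untested _r probe set of Cldn11 were lowest on deprived replicate 2. The _r probe set of Mag was highest there but lowest on non-deprived replicate 2.

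**Figure D3:**
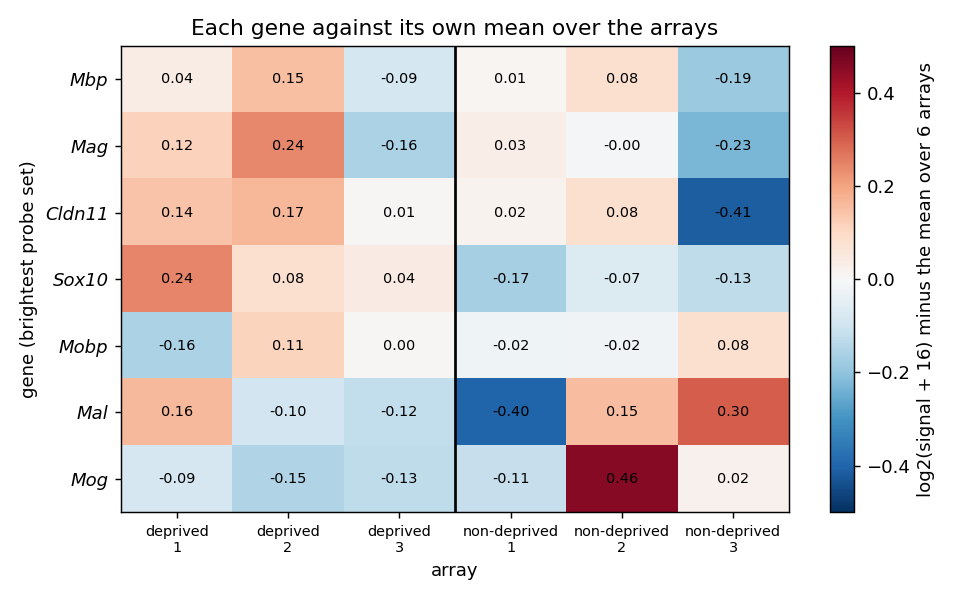
Log2(signal + 16) of the brightest probe set of each tested gene minus its mean over the 6 arrays, with genes in rows and arrays in columns. The black line separates deprived (left) from non-deprived (right) arrays, and red is above and blue below the gene's own mean. Mbp, Mag and Cldn11 are highest on deprived replicate 2 and lowest on non-deprived replicate 3, Sox10 is above its mean on all deprived arrays, and Mal and Mog follow other orders.

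Averaged over the 7 genes, the centred log2 signal was 0.07, 0.07 and -0.06 on deprived arrays 1 to 3, against -0.09, 0.10 and -0.08 on non-deprived arrays 1 to 3. The group means were 0.02 ± 0.08 in deprived and -0.02 ± 0.11 in non-deprived cortex (SD, n = 3 each), and the range of the non-deprived arrays covered that of the deprived arrays. The coefficient of variation over the 6 arrays had a median of 12.2% for the 7 genes, beside 14.6% for all tested genes. Both results depend on taking the brightest probe sets. Averaged over all 13 tested probe sets, deprived replicate 2 stood at 0.27, above the highest non-deprived array at 0.09. By probe set the median coefficient of variation was 15.4%, beside 15.3% for all tested probe sets.

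Tested probe sets of other named genes were compared with the profile averaged over brightest probe sets. Those that followed it most closely were of Clcn3, a chloride transporter, Upk2, an uroplakin, Mark4, a microtubule affinity-regulating kinase, Mvp, the major vault protein, and Twist2, a transcription factor. Their Pearson correlations with the profile over the 6 arrays were 0.978, 0.976, 0.974, 0.967 and 0.962. They are a description of 6 arrays, picked as the highest of all tested probe sets, and none of these genes stood on the oligodendrocyte lists below.

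Further genes of the oligodendrocyte lineage were taken from lists that name genes by role. Mature oligodendrocyte genes had 13 tested of 25 listed symbols, and the listed symbols name Septin4 also as Sept4. Of the 13, 8 had a higher and 5 a lower mean in deprived cortex. In either direction 0 passed, and the median log2 change was 0.03. The 3 with the smallest p were Lpar1, a lysophosphatidic acid receptor (log2 change 0.99, SE 0.55), Apod, the lipid carrier apolipoprotein D (0.21, SE 0.13), and Evi2a (0.32, SE 0.23). On its other probe set Evi2a had 0.06 (SE 0.24). Lpar1 read 143.2, 392.8 and 254.7 on deprived arrays and 293.5, 48.4 and 96.4 on non-deprived arrays. Its groups overlapped, and its values changed up to 8.12-fold between arrays at a low signal.

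Other myelin and paranodal genes had 3 tested of 16 listed symbols, with 0 past the threshold and a median of 0.15. The listed symbols name Cntnap1 also as Caspr. Cntn1, an axonal adhesion molecule of the paranode, had a log2 change of 0.15 (SE 0.10). Cd9, a tetraspanin of the sheath, had 0.24 (SE 0.26), and Cntnap1, the axonal partner of Cntn1, had -0.0034 (SE 0.18). Cd9 read 699.1 to 767.1 on deprived arrays, against 926, 665 and 382.9 on non-deprived arrays 1 to 3, and its log2 change was -0.09 without non-deprived replicate 3. Myelin lipid enzymes had 4 tested of 10 listed, 1 higher and 3 lower in mean, 0 past the threshold and a median of -0.02. Fasn, fatty acid synthase, had a log2 change of 0.22 (SE 0.22), which was 8.11e-05 without non-deprived replicate 3. The desaturase Scd1 had -0.03 (SE 0.13) on its brightest probe set and 0.37 (SE 0.16, limma adjusted p = 0.949) on another, so its probe sets differ in sign. The elongase Elovl1 had -0.07 (SE 0.38), and 0.29 without non-deprived replicate 3.

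Lineage factors and precursor genes had 13 tested of 21 listed, 6 higher and 7 lower in mean, with 0 past the threshold and a median of -0.08. Fgfr2, a receptor through which fibroblast growth factors act on oligodendrocytes and other glia, read 931.1, 891.9 and 1004.5 on deprived arrays, against 1190.5, 1328.2 and 1149 on non-deprived arrays. All deprived values lay below the non-deprived ones, with a log2 change of -0.37 (SE 0.11), but limma's adjusted p was 0.839. Groups that do not overlap with deprived arrays lower made up 4.59% of all tested probe sets. On a dimmer probe set, Fgfr2 changed by -0.22 on the log2 scale (SE 0.25) without passing. Id4, an inhibitor of oligodendrocyte differentiation, had 0.25 (SE 0.12), and the zinc-finger factor Myt1 had 0.49 (SE 0.35).

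Cholesterol synthesis supplies a main lipid of myelin and also runs in astrocytes and neurons. Of its 22 listed genes 13 were tested, 2 with a higher and 11 with a lower mean in deprived cortex. Over all tested genes, 2677 of 5653 had a lower mean. Of the 13 genes 0 passed, and the median was -0.13. Tm7sf2, a sterol reductase, read 591.8, 455 and 519.4 on deprived arrays, against 670.2, 560.1 and 844 on non-deprived arrays, which overlapped (log2 change -0.38, SE 0.18, limma adjusted p = 0.949). Its other probe set had 0.10 (SE 0.28). Fdft1, squalene synthase, had a log2 change of -0.21 (SE 0.11), and Lss, lanosterol synthase, had 0.49 (SE 0.26). Signals between axon and glia had 5 tested of 14 listed, 0 past the threshold and a median of 0.06. Efnb3 had a log2 change of 0.14 (SE 0.10), and -0.06 (SE 0.19) on its other probe set. The protease gene Adam10 had 0.21 (SE 0.18), and 0.14 (SE 0.24) on its other probe set. The receptor gene Notch1, read by an _r probe set, had -0.20 (SE 0.28).

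Over these 6 lists, limma gave 1 of 51 genes, Fgfr2, an unadjusted p under 0.05 on its brightest probe set. Over all 65 tested probe sets of these genes the number was 4, beside 5.09% of all tested probe sets, and 0 passed after adjustment. The other 3 were further probe sets of Scd1, of Ndrg1, a gene of myelinating glia (log2 change 0.35, SE 0.11, limma adjusted p = 0.851), and of Pdgfra, the growth factor receptor of oligodendrocyte precursors (0.72, SE 0.32, limma adjusted p = 0.949). On their brightest probe sets Ndrg1 had -0.07 and Pdgfra 0.10.

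**Figure D4:**
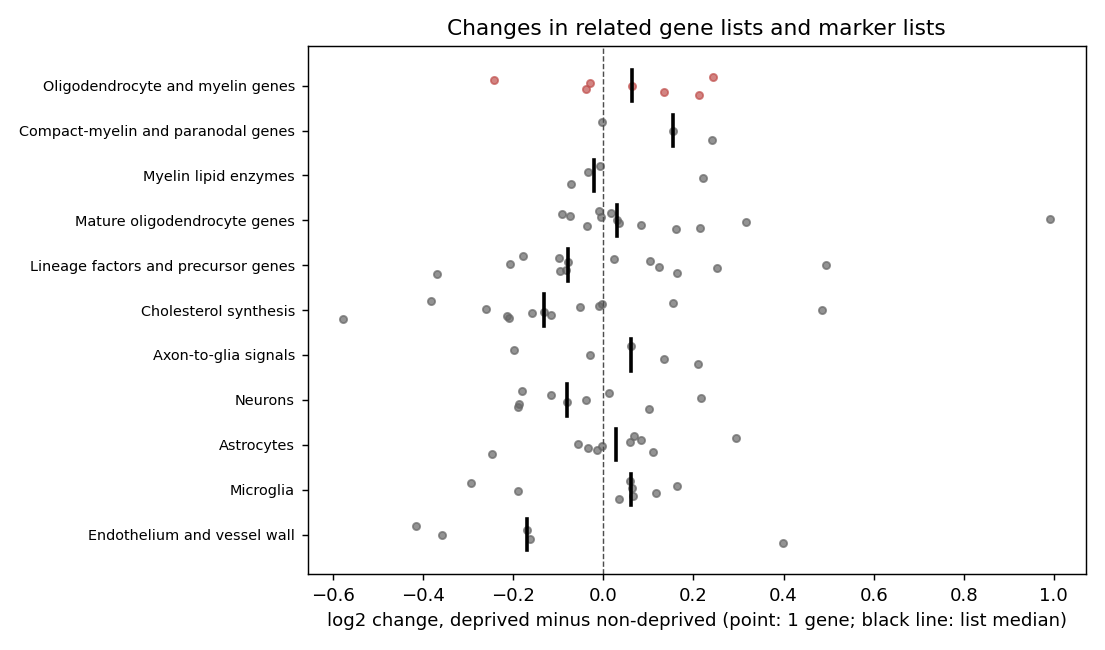
Log2 change (deprived minus non-deprived) of each tested gene, by its brightest probe set, in the oligodendrocyte and myelin genes (red), related lists and markers of other cell types (grey); black lines are list medians. The medians of the lists shown lie between -0.17 and 0.15, and no gene in them passed the threshold.

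Lists of markers of other cells and regions gave 0 genes past the threshold by limma on every list. On their brightest probe set 3 genes had an unadjusted limma p under 0.05, where 293 of all 5653 tested genes did. These were Tubb3 among neuronal genes and Aldoc among astrocyte genes (lower in mean in deprived cortex) and Wfs1 on the list for neighbouring regions (higher). Tubb3 was read by an _f probe set, a type that, like _r, can pick up related transcripts. The median log2 change was -0.08 for 9 tested of 10 neuronal genes, 0.03 for 10 of 12 astrocyte genes, 0.06 for 8 of 11 microglia genes and -0.17 for 5 of 10 endothelial and vessel wall genes. It was 0.03 for 5 of 7 genes of meninges and choroid plexus and -0.14 for 6 of 8 genes listed for neighbouring thalamus and hippocampus. The last list shares Tcf7l2 with the lineage list, and whether its genes are also expressed in visual cortex itself was not tested. Of the 4 Schwann cell markers, which would report peripheral myelin, only Pmp22 was tested, at a log2 change of 0.04 (SE 0.26).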

How the data were processed

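Visual cortex RNA was hybridised to 6 one-colour arrays (3 deprived, 3 non-deprived). The authors deposited MAS5 signal intensity per probe set on a linear scale, per the submitters' processing notes; the version, detection calls and scanner files are not used here. All deposited columns had a 2% trimmed mean of 500.3, to which arrays were scaled. With no detection calls, dim probe sets cannot be told from background, and the number of arrays limits the precision.

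After removal of 66 control probe sets, the brightest 60% by mean signal (7453) were tested on log2(signal + 16) in limma 3.58.1 (R 4.3.3; lmFit, then trended eBayes). The model held only group, tests were two-sided, and p-values were adjusted by Benjamini-Hochberg over every tested probe set. A pseudocount of 16 understates changes of low signals. The fit was tested on simulated data. Symbols came from the platform annotation, updated by Entrez ID to RefSeq (GRCm38.p6): 10855 probe sets had 1 symbol, 396 several and 1237 none, and 10839 matched. The brightest probe set stands for a gene, and the 3 listed genes with the smallest p were named. Members and lists were chosen with earlier results of these data known. Alternatives were quantile normalization, no further scaling, other pseudocounts and filters, the replicate block, no intensity trend, other gene summaries and leaving out each array.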

Additional observations from a re-analysis of the deposited data

How the results depend on the processing

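Under 16 alternatives, 0 of the tested oligodendrocyte and myelin genes passed the threshold; the smallest adjusted p in any of them was 0.756, and the median log2 change of these genes stayed between 0.01 and 0.12. With only the top 40% of mean signal, Mog was not tested. Sox10 (0.18 to 0.28), Mag (0.05 to 0.25) and Cldn11 (0.06 to 0.30) kept a positive and Mog (-0.36 to -0.08) a negative log2 change in every alternative in which they were tested. Other filters, the replicate block, no intensity trend and fitting only brightest probe sets could not move a gene's log2 change. No further scaling hardly could, since the arrays already shared a trimmed mean. Only the other alternatives could have turned a sign. Mbp, Mobp and Mal, whose changes are near 0, did not keep their sign: averaging each gene's probe sets gave Mbp -0.0614 and Mobp 0.0340, and leaving out single arrays gave ranges of -0.0128 to 0.124 for Mbp, -0.0915 to 0.0432 for Mobp and -0.248 to 0.103 for Mal. Sign changes came without non-deprived replicate 3 for all 3 genes (Mbp -0.0128, Mobp 0.0046, Mal 0.103), without deprived replicate 1 for Mobp, and without deprived replicate 2, deprived replicate 3 or non-deprived replicate 2 for Mal. Over all probe sets the number past the threshold was 13, and 7 to 10 when single arrays were left out: leaving out non-deprived replicate 2 gave 7, and leaving out either array numbered 3 gave 8, with fewer arrays fitted. Same-numbered arrays did not deviate together from their group means (correlations 0.0030, 0.05 and -0.02 over 7453 probe sets), and no deprived array correlated best with the non-deprived array of its own number. With the replicate block 10 passed, and 0 of them were oligodendrocyte and myelin genes; the labels do not say that the numbers pair the arrays, and the block gave 0 calls among the 65 tested probe sets of the 6 related lists and left Fos past the threshold. In fits chosen after seeing the data, leaving out non-deprived replicate 3 turned the sign of Cd9 (-0.0948), Scd1 (0.0261) and Elovl1 (0.293), none of which passed either way.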
